A study of Mus musculus with 6 samples.

Results

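The cells described here were chosen by a rule on their own counts: at least 300 unique molecular identifiers (UMIs) of S100a8 and S100a9 per 10000 UMIs of the cell, under 100 of Camp and Ngp, at least 1 UMI of Retnlg, Cxcr2 or Csf3r, and under 20 of C1qa, C1qb and C1qc. The rule found 472 of the 22163 kept cells (2.13%). They came from 3' single-cell RNA sequencing of 6 mouse rhabdoid tumors, of which 3 are MYC spinal tumors (MYC spinal 1 to 3) and 3 are labelled MYC extracranial rhabdoid tumors, or eRT (eRT 1 to 3). All mice carried floxed Smarcb1, which encodes part of the chromatin remodeler SWI/SNF, on a C57BL/6 background, and received tamoxifen before birth, by a 50 mg/kg injection of the dam at day 6.5 post-coitum. The MYC spinal mice and the mouse of eRT 1 carried Rosa26-cre, driven by a ubiquitous promoter. Those of eRT 2 and eRT 3 carried Sox2-cre, driven by the Sox2 promoter. Both are tamoxifen-inducible creERT2 lines with both Smarcb1 alleles floxed, and the paper reports recombination in only a few cells of either. The MYC spinal mice were 19, 26 and 17 weeks old. The mice of eRT 1 (gland), eRT 2 (jaw) and eRT 3 (shoulder) were labelled 17, 29 and 22 weeks. Each library is 1 tumor of 1 mouse, sorted for live cells after red blood cell lysis, with 3841706 to 26184224 UMIs in kept cells, and no healthy tissue was compared here.

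Neutrophils mature in the bone marrow in steps that can be read from their granule genes. Promyelocytes make the proteins of primary granules, such as myeloperoxidase (Mpo) and neutrophil elastase (Elane). Myelocytes and metamyelocytes make those of secondary granules, such as lactoferrin (Ltf), cathelicidin (Camp) and neutrophilic granule protein (Ngp). Late cells stop making both, keep the alarmins S100a8 and S100a9, and gain Retnlg and the chemokine receptor Cxcr2 before they leave for blood and tissue. They also express the G-CSF receptor Csf3r. The rule was written to find such late neutrophils. Because the data went against that name in part of the cells, as described next, the cells are called Camp-low cells. The cells that met the same S100a8, S100a9 and C1q limits but held at least 100 UMIs of Camp and Ngp per 10000 are called Camp-high cells (1500 in all), and both together with 64 cells that lacked the marker UMI are called S100-high cells (2036).

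Camp-low cells were found in quantity in 3 of the 6 tumors. MYC spinal 2 held 247 among 5749 kept cells (4.30%, 95% exact binomial interval 3.79 to 4.85) and eRT 2 held 192 among 2042 (9.40%, 8.17 to 10.8), so that 52.3% and 40.7% of them came from these tumors. The order of these shares turned when cells under 500 genes or over 10% mitochondrial UMIs were dropped, to 4.21% in MYC spinal 2 and 3.20% in eRT 2. MYC spinal 3 held 32 among 6740 kept cells (0.475%). In eRT 1 there was 1 such cell among 2143, and that cell also carried 6 UMIs of Cd3d and 6 of Cd3g, parts of the T cell receptor complex. MYC spinal 1 and eRT 3 had 0 of 1469 and 0 of 4020, which by the same interval allows shares of up to 0.251% and 0.0917%. The mean share of kept cells was 3.15% ± 5.42 (SD, n = 3) in eRT and 1.59% ± 2.36 in MYC spinal tumors. The difference of 1.56 percentage points was smaller than the spread between tumors (exact two-sided permutation test, p = 0.9, where 3 tumors against 3 cannot go below 0.1), and without eRT 2 it was -1.57.

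**Figure D1:**
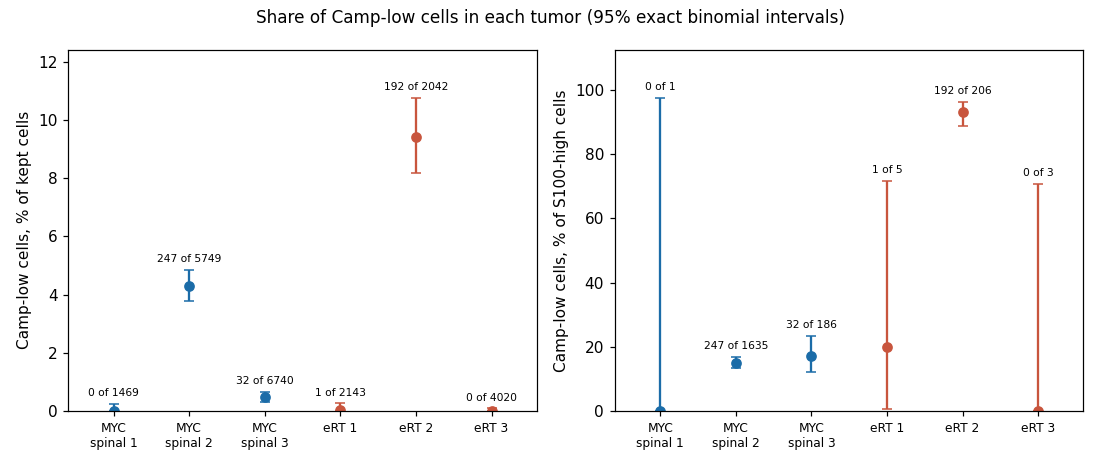
Share of Camp-low cells in each of the 6 tumors, as percent of kept cells (left) and of S100-high cells (right), with 95% exact binomial intervals that cover counting error only. Blue points are MYC spinal tumors and red points eRT. Only eRT 2 combines many S100-high cells (206) with a share of Camp-low cells of 93.2%.

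The tumors differed in what accompanied these cells. In MYC spinal 2, 1635 cells were S100-high and 1339 of them were Camp-high, which left 15.1% Camp-low (13.4 to 16.9). In MYC spinal 3, 153 of 186 S100-high cells were Camp-high and 17.2% were Camp-low. In eRT 2, 0 of 206 S100-high cells were Camp-high and 93.2% (88.9 to 96.2) were Camp-low. The other tumors had 1, 5 and 3 S100-high cells, too few for a share. An exact two-sided permutation test over all 6 tumors (difference 27.0 percentage points, p = 0.5, and -0.770 points without eRT 2) counts these as shares, so nothing is read from it. The shares follow from the rule's own genes and are a description.

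The Camp and Ngp limit had cells close to it on both sides in MYC spinal 2 and 3 and none in eRT 2, while the S100a8 and S100a9 limit had cells close to it in eRT 2 as well. Between 50 and 100 UMIs of Camp and Ngp per 10000, just inside the limit, lay 60 Camp-low cells of MYC spinal 2, 4 of MYC spinal 3 and 0 of eRT 2. Just outside it, between 100 and 200, lay 122, 11 and 0 cells. At the S100a8 and S100a9 limit, 7, 2 and 8 members lay less than 10% above it and 10, 0 and 4 cells less than 10% below it. The median member held 1140, 531 and 1017 UMIs of S100a8 and S100a9 per 10000 in MYC spinal 2, MYC spinal 3 and eRT 2. Camp and Ngp UMIs were both absent from 188 of 192 members in eRT 2 (97.9%), from 46 of 247 in MYC spinal 2 (18.6%) and from 10 of 32 in MYC spinal 3. In other cells, with at least 2 UMIs of Cd3d, Cd3e or Cd3g, both were absent from 35 of 60 in MYC spinal 2 (58.3%). In eRT 2 they were absent from 456 of 456 such cells. The part of free RNA in this contrast was not tested.

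The name late neutrophil held in eRT 2. There, 163 of 192 members (84.9%) had under 3 UMIs of every marker list of another class, that is primary granule, monocyte, MHC class II, macrophage, T and NK cell, B cell, basophil and mast cell, and matrix and tumor genes. Elane, Mpo, Prtn3 and Ctsg had 0 UMIs in them. In MYC spinal 2 only 92 of 247 members (37.2%) passed this check. At least 3 UMIs of the primary granule genes were found in 79 members (32.0%), of monocyte genes such as Ly6c2 and Ccr2 in 87 (35.2%), and of the mitotic genes Mki67, Top2a, Birc5 and Stmn1 in 39 (15.8%). In MYC spinal 3 4 of 32 members passed, 18 carried MHC class II UMIs and 11 macrophage UMIs. The cut of 3 UMIs was the same at every depth, and other cells of that tumor also held such transcripts, as given below. Among the Camp-high cells of MYC spinal 2 and 3, 68.9% and 34.6% passed the same check.

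**Figure D2:**
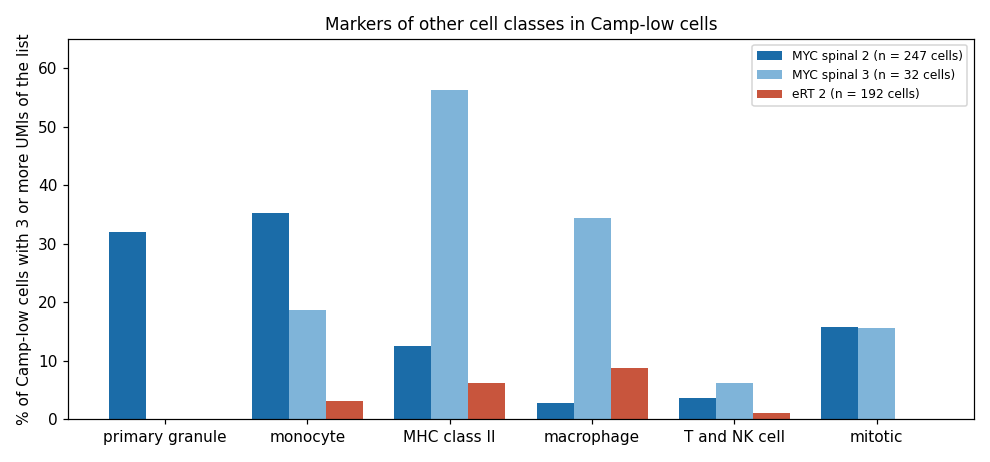
Share of Camp-low cells with at least 3 UMIs of marker lists of other cell classes, by tumor (percent of 247, 32 and 192 cells; bars start at 0). Primary granule and mitotic genes reach 32.0% and 15.8% in MYC spinal 2, MHC class II genes 56.3% in MYC spinal 3, and every list stays below 10% in eRT 2.

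The Camp-low cells of MYC spinal 2 differed along their S100 level. In the 50 members with 300 to 500 UMIs of S100a8 and S100a9 per 10000, Elane stood at 5125 CPM (counts per 1000000 summed UMIs) and Mpo at 3029, and 92% carried UMIs of another class. In the 75 members with at least 2000, Elane was at 223 CPM and Mpo at 127, and 25.3% did. Retnlg went from 3448 to 49302 CPM between these strata. Elane was higher in all Camp-low cells of this tumor (2501 CPM) than in its Camp-high cells (802 CPM), as were Mpo (1299 against 317), Prtn3 (1638 against 485) and Ctsg (603 against 111). There, a low Camp and Ngp level was shared by cells with primary granule transcripts and cells with high Retnlg. In eRT 2 Retnlg also rose with the S100 level, from 4695 to 34071 CPM, while Elane was at 0 in every stratum.

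**Figure D3:**
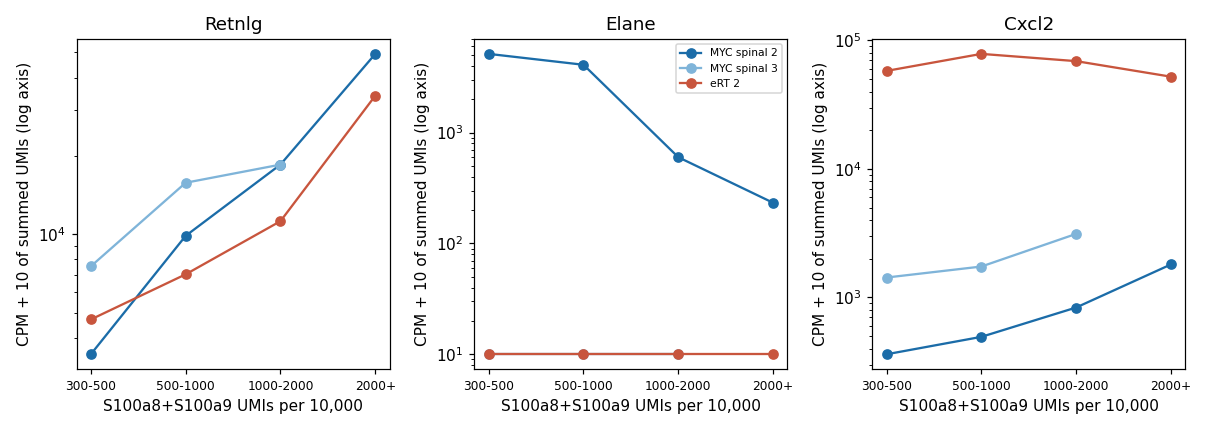
Retnlg, Elane and Cxcl2 in Camp-low cells split by their S100a8 and S100a9 level (UMIs per 10000), as CPM of summed UMIs plus 10 on a log axis, for strata of at least 5 cells. Elane falls from 5125 to 223 CPM across the strata of MYC spinal 2 and is at 0 in eRT 2 and MYC spinal 3, whose lines coincide at the bottom, and Cxcl2 in eRT 2 stays between 52163 and 78497 CPM.

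Depth and free RNA bear on these shares. Members had a median of 983 UMIs and 452 genes in MYC spinal 2, 2460 and 999.5 in MYC spinal 3, and 1042 and 387 in eRT 2. A UMI of Retnlg was present in 96.8%, 100% and 94.3% of members. It was also present in 33.3% of the 60 Cd3-positive cells of MYC spinal 2, a class that should lack it (median 677 UMIs), against 7.46% of 456 in eRT 2 (median 1317). Of the members, 76.1% in MYC spinal 2 and 32.3% in eRT 2 held Retnlg alone among the 3 marker genes, and the marker requirement removed 49 S100-high cells of MYC spinal 2 and 14 of eRT 2. With a minimum of 500 genes per cell and 10% mitochondrial UMIs, 99, 32 and 48 members were left in MYC spinal 2, MYC spinal 3 and eRT 2. In MYC spinal 3, a dendritic cell list with MHC class II genes summed to 3530 CPM in members and 6297 CPM in Cd3-positive cells. A macrophage list summed to 5798 and 8503 CPM, where the rule limits C1q genes in members only. Those Cd3-positive cells had a median of 2421 UMIs. Shares of members with markers of other classes were not compared at equal depth, and the part of free RNA in them was not tested. The tables name cells by tumor and number, without barcodes, so shared barcodes could not be counted.

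Against all other kept cells of their own tumor, 233 of 1137 genes outside the rule with at least 100 CPM were higher in the members of all 3 tumors, a description, since the rule chose the cells. The 15 with the largest mean ratio were led by the stefin genes Gm5483 and Stfa2l1, which encode cysteine protease inhibitors and share sequence with their neighbors, so that their counts are uncertain. Gm5483 stood at 278, 172 and 1870 CPM in MYC spinal 2, MYC spinal 3 and eRT 2. Next were Wfdc21, Lrg1, Hdc, Asprv1, Mrgpra2b, G0s2, Mmp8, Pglyrp1, Il1f9, Slpi, Hcar2, Stfa1 and Trem1. Hdc makes histamine, Mmp8 is the neutrophil collagenase, and Trem1 amplifies inflammatory signals. The log2 ratio of Mmp8 was 0.92 in MYC spinal 2, where most other neutrophils are in the comparison, 4.55 in MYC spinal 3 and 3.15 in eRT 2.

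For the comparison of the subtypes, UMIs were summed over the members of each tumor with at least 10 of them. This left 2 MYC spinal tumors and 1 eRT, so subtype, mouse model, site, age and the single tumor eRT 2 cannot be told apart. The single eRT is assumed to vary like the MYC spinal tumors. By the quasi-likelihood test of edgeR, at a Benjamini-Hochberg adjusted p under 0.05, 250 of 3169 genes (7.89%) differed, 211 higher in eRT 2 (6.66%) and 39 lower (1.23%). Among the genes of 15 function lists, 74 of 189 tested passed, 66 higher and 8 lower. The median log2 fold change over all genes was -0.16, and -0.88 without the TMM scaling, where 87 genes were higher and 55 lower. When cells under 500 genes or over 10% mitochondrial UMIs were dropped, 16 of the 1634 genes tested passed, with Ccl3, Ccl4, Tnf and G0s2 among them. Cxcl2 and Il1b did not pass there, at log2 fold changes of 6.08 and 5.66 (edgeR adjusted p = 0.0789 and 0.0803, the highest over their 10 alternatives, of which the lowest are 1.22e-20 and 3.19e-10). The depth of the sums was 291859, 81579 and 232109 UMIs. The gene lists were chosen with earlier results of these data known, so counts and medians over them are a description. Each list count is to be set beside the shares over all genes given above.

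Primary granule genes were lower and most secondary and tertiary granule genes did not pass the test. Of the 6 primary granule genes tested, Elane, Mpo, Prtn3, Ctsg and Ms4a3 fell, and all were at 0 in eRT 2, while Srgn, which packs granule contents, rose. Elane was at 2501 CPM in MYC spinal 2, at 0 in MYC spinal 3 and at 0 in eRT 2, so the difference rests on 1 tumor, against which eRT 2 was at least 194-fold lower at a floor of 3 counts. Elane passed under 7 of 10 alternative settings, and Mpo, Prtn3, Ctsg and Ms4a3 under 6. The fall of all 5 rests on MYC spinal 2, since MYC spinal 3 held 12.3 CPM of Mpo and of Prtn3, under its floor of 36.8 CPM, and 0 of Ctsg and Ms4a3. The secondary granule list had 1 of 9 genes lower, Ltf, with 349, 159 and 12.9 CPM in MYC spinal 2, MYC spinal 3 and eRT 2 (log2 fold change -3.66 ± 1.18 SE, edgeR adjusted p = 0.0297), which passed under 4 of 10 alternatives. Lcn2, a siderophore-binding protein of secondary granules, was at 1141, 1545 and 1663 CPM and did not pass. Mmp8 (363, 343 and 267 CPM) did not pass either. The proliferation list had 2 of 12 genes lower, Birc5 and Stmn1, at 192, 98.1 and 0 CPM and at 452, 172 and 12.9 CPM.

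Late maturation genes were higher in eRT 2. The 18 tested had a median log2 fold change of 3.20, against -0.16 over all genes. Without TMM scaling these medians were 2.43 and -0.88. G0s2, an inhibitor of fat breakdown, was at 209, 61.3 and 9194 CPM in MYC spinal 2, MYC spinal 3 and eRT 2 (log2 fold change 6.62 ± 1.08 SE, edgeR adjusted p = 2.85e-07). Il1r2, the decoy receptor for interleukin 1, was at 202, 98.1 and 2180 CPM (4.44 ± 0.93, adjusted p = 0.000114). Clec4e, a C-type lectin that senses fungal and mycobacterial lipids, was at 209, 233 and 4519 CPM (5.03 ± 0.97, adjusted p = 2.45e-05). Over all members, eRT 2 lay above both MYC spinal tumors by at least 10-fold in each of these genes. Slpi, an inhibitor of neutrophil elastase in the tertiary granule list, rose from 1813 and 1263 to 8130 CPM (past the threshold under 6 of 10 alternatives), and 4 of the 9 tested genes of that list rose (2 without TMM scaling). Retnlg itself, a gene of the rule, was at 19242, 11572 and 11370 CPM, Csf3r at 182, 98.1 and 577, and Cxcr2 at 92.5, 85.8 and 392.

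Cytokine and chemokine genes were mostly higher in eRT 2, with a positive log2 fold change in 16 of 18 tested. Their median was 5.69, against -0.16 over all genes. Without TMM scaling these medians were 4.98 and -0.88. Together the listed genes made up 2275 CPM in MYC spinal 2, 4241 in MYC spinal 3 and 117738 in eRT 2. Cxcl2, a ligand of Cxcr2 that draws neutrophils, was at 833, 1802 and 68274 CPM, 82.0 and 37.9 times higher in eRT 2 than in either MYC spinal tumor (log2 fold change 6.42 ± 1.36 SE, edgeR adjusted p = 0.000134). It passed under 9 of 10 alternatives. Il1b, which encodes interleukin 1 beta, was at 140, 686 and 15536 CPM (6.02 ± 1.11, adjusted p = 8.25e-06). Ccl3 was at 192, 123 and 12778 CPM and Ccl4 at 209, 233 and 12352, and both encode CC chemokines and have near neighbors of like sequence. Tnf was at 6.85, 12.3 and 1051 CPM, which is 2, 1 and 244 UMIs. Cxcl3 and Il1a had 0 UMIs in both MYC spinal tumors and 1585 and 358 CPM in eRT 2, for Cxcl3 at least 154-fold and at least 43.1-fold higher than the floors of 3 counts. Il1rn, the antagonist of the interleukin 1 receptor, rose too, from 54.8 and 85.8 to 2059 CPM. Outside the list, Ccl17, a ligand of Ccr4, and Il23a, a subunit of interleukin 23, were at 0, 0 and 207 CPM and at 0, 0 and 125 CPM, and both passed.

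The differences in Cxcl2, Il1b and Nfkbia were also present without the cells that carried markers of other classes. In the 92 members of MYC spinal 2 and 163 of eRT 2 without such markers, a selection made after the data had been seen, Cxcl2 was at 1812 and 72943 CPM (40.3-fold), Il1b at 276 and 16421 (59.6-fold) and Nfkbia at 761 and 15256 (20.0-fold). Among members with at least 2000 UMIs of S100a8 and S100a9 per 10000, Cxcl2 was 29.0-fold and Il1b 64.3-fold higher in eRT 2 than in MYC spinal 2. Smaller differences shrank: Slpi was 4.49-fold higher over all members, 2.47-fold without such markers and 2.01-fold at this S100 level. Il1r2 was 10.8-fold higher over all members and 4.27-fold at this level. These are ratios of 1 tumor to 1 tumor, with no test. Retnlg had the other direction, 40332 CPM in MYC spinal 2 and 12391 in eRT 2 in the cells without such markers. After each cell was thinned to 500 UMIs, with 12 shallower members of MYC spinal 2 left out, Cxcl2 was found in 23.4%, 50% and 100% of members of MYC spinal 2, MYC spinal 3 and eRT 2, and in 37.2%, 81.3% and 100% before thinning. Il1b was found in 6.38%, 37.5% and 98.4% of thinned members.

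**Figure D4:**
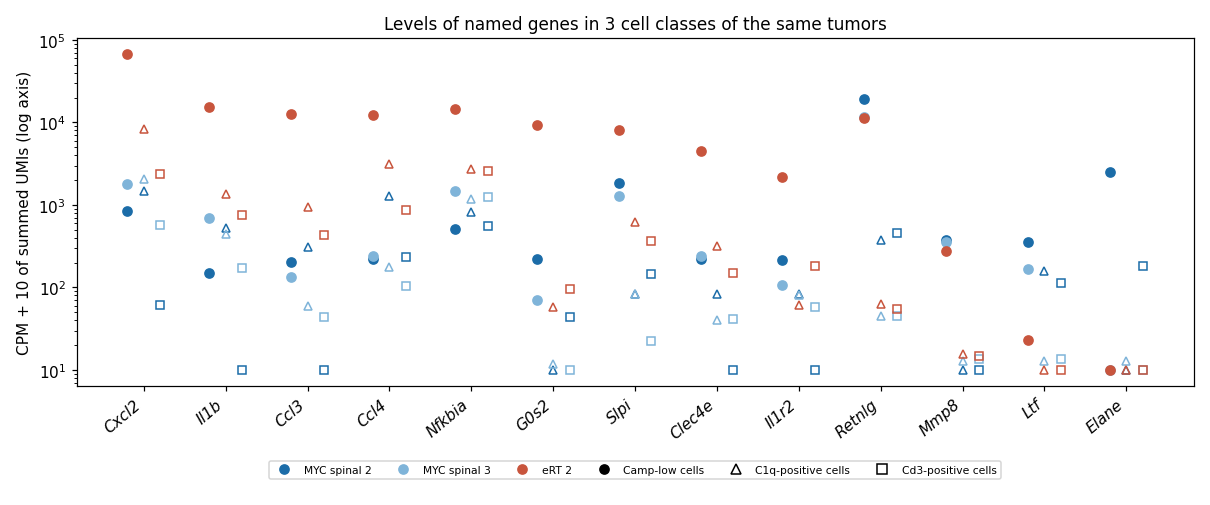
Levels of named genes (CPM of summed UMIs plus 10, log axis) in Camp-low cells (filled circles), C1q-positive cells (triangles) and Cd3-positive cells (squares) of MYC spinal 2, MYC spinal 3 and eRT 2. Cxcl2 reaches 68274 CPM in the Camp-low cells of eRT 2, and Elane stands at 2501 CPM in those of MYC spinal 2 alone.

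Other cells of eRT 2 also had more of these transcripts than their counterparts. Cxcl2 was at 8238 CPM in the 168 C1q-positive cells of eRT 2, against 1483 and 2080 CPM in those of MYC spinal 2 and 3. In Cd3-positive cells, where it is low as a rule, it was at 2359 CPM against 51.4 and 562. The value of 51.4 CPM equals the floor of 3 counts in the 60 Cd3-positive cells of MYC spinal 2. The C1q-positive cells of that tumor were 14. Il1b was at 1366, 519 and 439 CPM in the C1q-positive cells of eRT 2, MYC spinal 2 and MYC spinal 3. Thinned to 500 UMIs, 30.3% of Cd3-positive cells of eRT 2 held a Cxcl2 UMI and 1.54% a Retnlg UMI, against 100% and 87.5% of the members. G0s2 was at 48.1 CPM in the C1q-positive cells of eRT 2 and 86.3 in its Cd3-positive cells, against 9194 in the members. The part of free RNA in the levels of other cells was not tested.

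Whether the subtype difference was larger in Camp-low cells than in C1q-positive cells was tested as an interaction, with the tumor as a block. With edgeR 0 of 5233 genes (0%) passed, 112 had an unadjusted p under 0.05, and DESeq2 called 0. Without TMM scaling 11 genes passed, and against all other kept cells in place of the C1q-positive ones 368 of 10998 did, 245 of them higher. The 5 genes with the smallest p among those higher were Il23a, Ccrl2, Tgm2, Il1r2 and Ccdc146, and among those lower S100a1, F13a1, Acp5, Pdpn and Scamp2, none passing (adjusted p = 1 for each). Ccrl2, a receptor that presents chemerin, stood at 20.6, 61.3 and 3313 CPM in the members of MYC spinal 2, MYC spinal 3 and eRT 2. The test had little reach: the 14 C1q-positive cells of MYC spinal 2 gave 13490 UMIs, and in simulated counts it found 0% of 191 genes changed by 5 on the log2 scale.

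Nfkbia encodes an inhibitor of NF-kappaB, the transcription factor that inflammatory receptors switch on. It was at 497, 1471 and 14618 CPM (log2 fold change 4.64 ± 1.05 SE, edgeR adjusted p = 0.000505), and Tnfaip3, which restrains the same pathway, at 130, 24.5 and 612 CPM. The Tnfaip3 value of MYC spinal 3 lay under that tumor's floor of 36.8 CPM, and Tnfaip3 passed the test under 5 of 10 alternatives. Over the 16 tested genes of the transcription factor list the median log2 fold change was 1.34, against -0.16 over all genes. Without TMM scaling these medians were 0.66 and -0.88. The upstream sequences of the 3 CXC chemokine genes that rose and of Nfkbia are shown because each of these genes was higher in eRT 2 and holds the same motif. They are from RefSeq, build GRCm38.p6, 5′ to 3′ on the strand of the gene, and end at the start of the gene in RefSeq or GENCODE, whichever lies further upstream. Capitals mark GGGANTTTCC, a form of the NF-kappaB motif, searched on both strands. Cxcl1, Cxcl2 and Cxcl3 lie on the plus strand of chromosome 5, Nfkbia on the minus strand of chromosome 12.
Cxcl1 chr5:90890995-90891240: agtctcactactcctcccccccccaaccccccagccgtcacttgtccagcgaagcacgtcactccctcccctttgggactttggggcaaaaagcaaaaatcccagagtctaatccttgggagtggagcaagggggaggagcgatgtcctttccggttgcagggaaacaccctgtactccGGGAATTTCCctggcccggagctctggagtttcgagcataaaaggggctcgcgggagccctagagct
Cxcl2 chr5:90903649-90903870: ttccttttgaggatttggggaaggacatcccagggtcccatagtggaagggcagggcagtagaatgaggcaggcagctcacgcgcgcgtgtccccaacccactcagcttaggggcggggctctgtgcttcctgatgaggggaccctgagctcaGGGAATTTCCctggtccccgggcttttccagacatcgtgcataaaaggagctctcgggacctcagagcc
Cxcl3 chr5:90785851-90786100: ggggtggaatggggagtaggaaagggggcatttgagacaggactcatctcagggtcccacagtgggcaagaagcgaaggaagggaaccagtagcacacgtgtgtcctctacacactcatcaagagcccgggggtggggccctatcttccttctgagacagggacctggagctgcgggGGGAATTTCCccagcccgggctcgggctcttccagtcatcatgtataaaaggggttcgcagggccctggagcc
Nfkbia chr12:55492648-55492897: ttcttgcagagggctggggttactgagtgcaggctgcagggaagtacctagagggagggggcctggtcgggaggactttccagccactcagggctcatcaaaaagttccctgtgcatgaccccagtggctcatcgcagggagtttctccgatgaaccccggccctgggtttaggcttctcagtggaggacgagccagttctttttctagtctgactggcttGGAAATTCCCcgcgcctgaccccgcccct

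The motif began 71, 97 and 73 bases before the RefSeq start of Cxcl1, Cxcl2 and Cxcl3, each time as GGGAATTTCC, and in Nfkbia 29 bases before it on the other strand. Of 32851 promoters, 117 (0.356%) held it in the 250 bases before the start. Of the listed cytokine and chemokine genes, 16 had a promoter in the table and 5 of these held it, namely Cxcl1, Cxcl2, Cxcl3, Il6 and Csf1. In the other lists searched it was in 0 of 13 promoters of late maturation genes, 0 of 6 of primary granule genes, 1 of 10 of secondary granule genes and 1 of 14 of transcription factor genes. Il6 was at 44.5, 0 and 17.2 CPM in the members of MYC spinal 2, MYC spinal 3 and eRT 2 and did not pass the test, and Il1b and Tnf rose without these letters in that window. Csf1 was also higher in eRT 2, at a log2 fold change of 5.41, and its sequence is not shown. A match is a description of the sequence only.

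Receptors that sense microbes and guide migration were higher in part. The median log2 fold change was 2.09 over the 18 tested sensing and Fc receptors and 2.14 over the 15 tested trafficking receptors. Over all genes it was -0.16. Without TMM scaling these medians were 1.40, 1.42 and -0.88. Cd14, the co-receptor for lipopolysaccharide, was at 192, 650 and 7565 CPM in MYC spinal 2, MYC spinal 3 and eRT 2, and Nlrp3, an inflammasome sensor, at 82.2, 61.3 and 758. Fpr1, a receptor for bacterial formyl peptides, was at 61.7, 24.5 and 405 CPM, and C5ar1, for complement C5a, at 130, 196 and 1034. All 4 passed. Cxcr4, which holds neutrophils in the marrow, was at 411, 49.0 and 190 CPM, with eRT 2 between the MYC spinal tumors. The 6 tested genes of the phagocyte oxidase list had a median log2 fold change of 0.84. Among them Cyba was at 1059, 1692 and 1021 CPM.

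**Figure D5:**
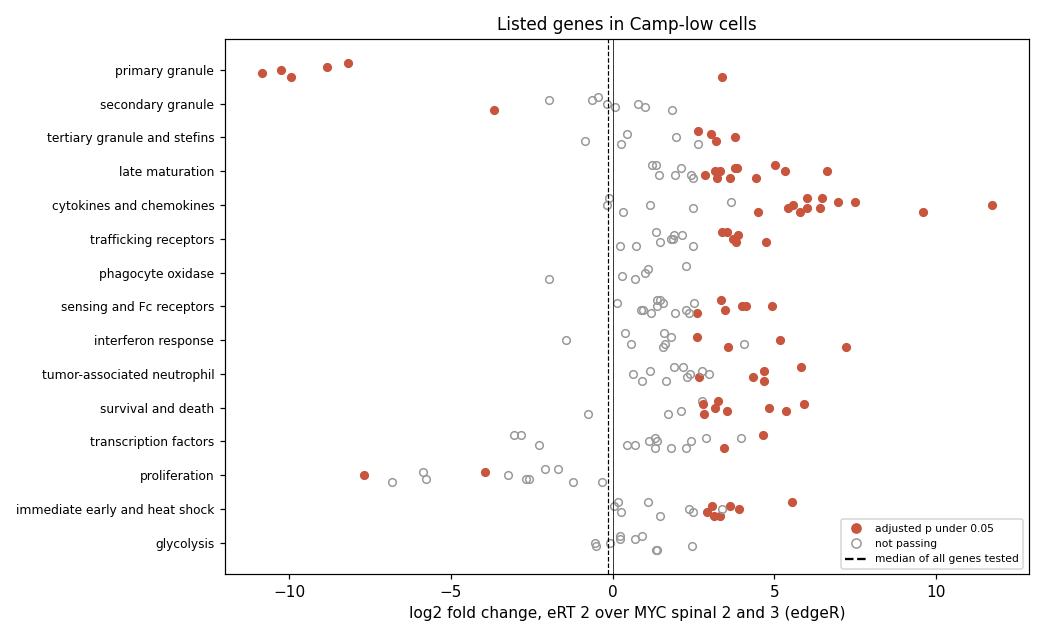
Log2 fold change of listed genes in Camp-low cells, eRT 2 over MYC spinal 2 and 3 (edgeR), by function list. Filled red points passed at an adjusted p under 0.05, and the dashed line is the median of all genes tested, -0.16. The medians of the cytokine and chemokine and of the primary granule list are 5.69 and -9.38.

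The 12 tested genes of the survival and death list had a median log2 fold change of 2.99, against -0.16 over all genes. Without TMM scaling these medians were 2.32 and -0.88. Bcl2a1b, a relative of Bcl2 that keeps neutrophils alive, was at 20.6, 135 and 1193 CPM in MYC spinal 2, MYC spinal 3 and eRT 2. It shares reads with Bcl2a1a and Bcl2a1d, which also rose. Mcl1, the main survival factor of neutrophils, was at 620, 257 and 956 CPM and did not pass. The 15 tested genes described in tumor-associated neutrophils had a median log2 fold change of 2.38, and 1.59 without TMM scaling. Ptgs2, the inducible cyclooxygenase, was at 13.7, 24.5 and 646 CPM. Cd274, which encodes PD-L1, was at 17.1, 12.3 and 211 CPM. Siglecf had under 15 CPM in all 3 tumors. The 10 glycolysis genes tested had a median log2 fold change of 0.46.

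The 12 tested interferon response genes had a median log2 fold change of 1.70, against -0.16 over all genes. Without TMM scaling these medians were 0.95 and -0.88. Isg15 was at 6.85, 208 and 664 CPM in MYC spinal 2, MYC spinal 3 and eRT 2, and Rsad2 at 6.85, 36.8 and 388. Isg15 passed the test under 5 of 10 alternatives. Over 10 interferon genes, 107 of 192 members of eRT 2 held 0 UMIs, 39 (20.3%) held at least 3, and the 19 members with most held 59.3% of the 302 UMIs. The spread in MYC spinal 3 was alike, where 21 of 32 members held 0, 4 (12.5%) held at least 3, and the 3 members with most held 59.3% of 27 UMIs. In MYC spinal 2, 239 of 247 members held 0. In these sparse counts a member without a UMI is not shown to lack the transcript.

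Signs of handling and of other cells moved with the result. The 15 tested immediate early and heat shock genes, which tissue dissociation can induce, had a median log2 fold change of 2.92. Without TMM scaling it was 2.17. Junb rose from 353 and 674 to 3882 CPM and Zfp36 from 178 and 172 to 1659. Fos was at 822, 1189 and 1693 CPM and did not pass. Hemoglobin genes rose, with Hbb-bs at 0, 0 and 2098 CPM, and the other kept cells of eRT 2 held 3155 CPM of it. Only 3 of 192 members of eRT 2 (1.56%) held at least 3 UMIs of Hbb-bs, Hbb-bt, Hba-a1 and Hba-a2 together. Few cells thus carried much of these sums. The members' median mitochondrial share was 1.95%, 1.88% and 0.131%. Wfdc17 was at 576, 7048 and 14890 CPM and did not pass. Acp5, an osteoclast and macrophage phosphatase, fell and was at 10.3, 2476 and 0 CPM, so it was high in MYC spinal 3 alone. The MHC class II chain Cd74 was at 764, 4155 and 956 CPM. The part of these in the differences was not tested.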

How the data were processed

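The authors dissociated each tumor, sorted live cells and prepared 10x Genomics 3' v2 libraries. Reads were processed with Cell Ranger 2.0.2 on mm10, as the submitters' processing notes give it. The authors deposited UMI counts per gene and cell, 1 table per tumor, without normalization. Cells under 200 genes or over 25% mitochondrial UMIs were dropped. The members and the gene lists were chosen with earlier results of these data known. UMIs were summed over cells of a kind in each tumor with at least 10 members, and CPM are per 1000000 of that sum. C1q-positive cells held at least 20 UMIs of C1qa, C1qb and C1qc per 10000, and Cd3-positive cells at least 2 UMIs of Cd3d, Cd3e or Cd3g. No doublet caller was run. Possible doublets were left out in an alternative.

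Sums were tested with edgeR 4.0.16 in R 4.3.3 (quasi-likelihood, TMM, filterByExpr, Benjamini-Hochberg at 0.05), with DESeq2 1.42.0 as an alternative. SE values are the absolute fitted log2 change divided by the square root of F. On simulated counts the subtype test found 98.0% of 199 genes changed by 5 on the log2 scale and 6.50% of 200 changed by 2. It also called 9 and 0 unchanged genes in these runs. The simulated tumors varied less than the data, whose common biological coefficient of variation was 0.53. The changed genes were drawn from those with higher counts, so the shares found may be too high for the data. Shares were compared between 3 and 3 tumors with an exact permutation test (scipy 1.17.1). Intervals are exact binomial at 95%, and a floor for a count of 0 is 3 counts. Both cover counting error only. Samples are separate mice. Named genes are those of the lists, the 15 with the largest ratio of members to other cells, and up to 10 per direction with the largest change among non-overlapping genes past the threshold.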

Additional observations from a re-analysis of the deposited data

How the results depend on the processing

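Counts of genes that differed between eRT 2 and the MYC spinal tumors moved with the processing. Against 250, they were 142 without TMM factors, 94 with DESeq2, 16 when cells under 500 genes or over 10% mitochondrial UMIs were dropped, 84 with S100a8 and S100a9 at 200 and 88 at 500 per 10000. Listed genes called went from 74 to 46 without TMM factors. Of 92 listed or named genes past the threshold, 14 stayed past it wherever they were tested, under 10 alternatives for Ccl3, Ccl4, Cxcl1, Cxcl3, G0s2, Il1rn, Osm, Ptgs2 and Tnf, 9 for Ccl17 and Hbb-bs and 8 for Hba-a1, Hba-a2 and Hbb-bt, and of their 902 values under the alternative settings 0 changed direction and 278 no longer passed. The cause was not tested, except that the stricter cell filter leaves fewer cells. For Hbb-bs, carried by few members, the fitted log2 fold change ranged from 7.04 to 12.4 over its alternatives. In the interaction, against 0, there were 11 calls without TMM factors, 1 without the tumor block and 368 against all other kept cells.

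The difference in the share of kept cells was -0.481 percentage points with the stricter cell filter. With 1 tumor left out it ranged from -1.57 (without eRT 2) to 3.13, and that in the share of S100-high cells from -0.770 (without eRT 2) to 45.8. Without MYC spinal 2 the log2 ratio of Nkg7, a gene of cytotoxic granules, was 0.52, and without MYC spinal 3 it was -4.38, against a fitted -4.47. Without either MYC spinal tumor no test was possible. Mouse model as a covariate could not be fitted, since eRT 2 is the only tumor of its model there. The test on tumors with at least 50 members, or on members without markers of other classes, would leave 1 tumor against 1. No paired analysis was possible because the tumors came from separate mice, and nothing in the labels pairs them across the subtypes.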
